A study of Mus musculus with 12 samples.

Results

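Nonproductive alpha joins are V to J rearrangements of the T cell receptor alpha (TRA) locus whose CDR3, the loop encoded across the join, is out of frame or holds a stop codon. They were taken from the clone tables as rows with a TRAV best V segment, a TRAJ best J segment and a covered CDR3 whose translation carried a frame shift or a stop. Each distinct V, J and CDR3 nucleotide sequence was counted as 1 clonotype. This gave 19044 distinct nonproductive clonotypes of 142934 distinct TRA clonotypes in 12 libraries, and the other 123890 were productive. The clonotypes came from mouse thymocytes sorted as CD4 single-positive (CD4SP) or CD8 single-positive (CD8SP) from mice lacking Chrna9, an acetylcholine receptor subunit gene, and from wild-type (WT) mice. The 4 groups were Chrna9 knockout (KO) CD4SP, WT CD4SP, KO CD8SP and WT CD8SP, each with 3 libraries, from 6 mice in 3 KO and WT pairs, of which 2 pairs were male and 1 was female. A CD4SP sample held 1000000 cells and a CD8SP sample 330000 cells, so cell number and cell type cannot be told apart. The labels give no strain, age or treatment, and call the knockout Chrna9-/- without naming a driver or clone.

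The alpha locus is assembled in double-positive thymocytes. A V segment is cut and joined to a J segment, both ends lose some bases, and the enzyme TdT can add others. Joining starts with V segments close to the J cluster and J segments at its 5′ end, and can be repeated further outwards on both alleles until a receptor passes selection. A nonproductive join encodes no chain, so the receptor on its cell comes from another join, and such joins serve in the field as a view of joining before selection acts on the chain. Their transcripts are read here from RNA, in which messages with a frame shift are known to be degraded faster.

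The sequences below show what such a join looks like. They are the 8 nonproductive CDR3s found in most libraries, in lower case, with capitals marking bases that either the V or the J end could have supplied, or, for TRAV11 to TRAJ27, bases assigned to neither.
TRAV1 to TRAJ22: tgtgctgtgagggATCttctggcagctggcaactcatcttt
TRAV1 to TRAJ31: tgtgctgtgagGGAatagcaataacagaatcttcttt
TRAV1 to TRAJ21: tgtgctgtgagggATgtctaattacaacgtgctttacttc
TRAV7-2 to TRAJ22: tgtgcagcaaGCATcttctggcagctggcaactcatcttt
TRAV7-5 to TRAJ32: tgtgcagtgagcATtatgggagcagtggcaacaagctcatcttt
TRAV11 to TRAJ27: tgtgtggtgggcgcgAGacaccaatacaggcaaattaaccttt
TRAV8-1 to TRAJ21: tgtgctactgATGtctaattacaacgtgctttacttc
TRAV7-5 to TRAJ32: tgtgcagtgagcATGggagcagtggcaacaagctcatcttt
The first is 41 nucleotides (nt) long, ends its coding frame 2 nt past a multiple of codons, and was found in 10 of 12 libraries with 34 reads. It was also the nonproductive clonotype with most reads in each cell type, with 16 reads in CD4SP and 18 reads in CD8SP libraries. The others were found in 4 to 6 libraries with 7 to 16 reads each. Of the 8, 7 had no added base, and in those 7 the V and J ends shared 2 to 4 bases at the join. Each of the 8 also had a productive clonotype of the same V and J 1 edit away in some of the libraries that held it, as TRAV1 to TRAJ22 did in 7 of 10, TRAV1 to TRAJ31 in 6 of 6 and TRAV7-2 to TRAJ22 in 5 of 5, there with up to 37 reads. Joins and error copies of productive joins cannot be told apart for single sequences like these. In mm10 coordinates from the RefSeq table of GRCm38.p6, TRAV1 lies at chr14:52427967-52428876, at the far end of the V array, and TRAJ22 at chr14:54197248-54197307. TRAV7-2 lies at chr14:53390633-53391136, TRAV7-5 at chr14:53530786-53531313, TRAV11 at chr14:53519303-53519859 and TRAV8-1 at chr14:53469756-53470231. TRAJ32 lies at chr14:54186101-54186166, and all these entries are annotated as V or J segments.

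A library held 1285 to 1956 nonproductive clonotypes and 10456 to 14981 productive ones, from 21510 to 36740 TRA reads. Nonproductive reads numbered 1663 to 3003 per library, and no nonproductive clonotype had more than 9 reads in a library. An equally scored second segment was present in 25.2% to 28.4% of nonproductive and 29.9% to 34.6% of productive clonotypes, so values of near-identical V copies are uncertain. An insertion or deletion in the V or J alignment was present in 6.03% to 8.65% of nonproductive and 2.70% to 3.53% of productive clonotypes. The median lowest base quality of the CDR3 was 38 in nonproductive clonotypes of every library, against 38 in the productive clonotypes of CD4SP and 58 in those of CD8SP libraries. Of nonproductive clonotypes, 11.3% ± 1.02 in CD4SP and 11.5% ± 0.652 in CD8SP (SD, n = 6 each) differed by 1 edit from a productive clonotype of the same V and J in their own library. The share that matched 1 edit away in libraries of other mice was 10.96% ± 0.701 for CD4SP and 10.9% ± 0.826 for CD8SP. The own-library share was the higher in 4 of 6 mice in CD4SP (exact sign-flip permutation test, p = 0.469) and in 6 of 6 in CD8SP (p = 0.0312, the smallest this test can give with 6 mice). The part of sequencing or amplification error in the nonproductive class was not tested further. The invariant alpha chain of natural killer T (NKT) cells, TRAV11 to TRAJ18 of 15 residues, made up 6.37% to 8.49% of productive reads in KO CD4SP and 5.26% to 6.51% in WT CD4SP libraries, against 0.0495% to 0.0897% in CD8SP libraries. TRAV1 to TRAJ33, the chain of mucosal-associated invariant T cells, stayed at or under 0.0464% of productive reads in every library.

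Nonproductive clonotypes were 10.5%, 10.7% and 10.8% of TRA clonotypes in KO CD4SP and 10.5%, 10.7% and 10.8% in WT CD4SP libraries. In CD8SP libraries they were 12.01%, 10.98% and 11.7% in KO and 11.7%, 11.2% and 11.2% in WT mice. All 6 CD4SP values lay below all 6 CD8SP values. The means were 10.7% ± 0.141 in CD4SP and 11.5% ± 0.389 in CD8SP (SD, n = 6), and the share was lower in CD4SP in 6 of 6 mice (exact sign-flip permutation test, p = 0.0312, 0.125 after Benjamini-Hochberg adjustment over 24 measures). Of reads, they took 7.54% ± 0.207 in CD4SP and 7.84% ± 0.356 in CD8SP. Counted per library and summed over the libraries, 10625 nonproductive clonotypes (54.4%) ended 1 nt past a multiple of codons, here called out of frame by 1. A further 8660 (44.4%) were out of frame by 2, and 237 (1.21%) were in frame with a stop. Those 237 were 0.151% of all 157217 in-frame joins. Their stop codon lay across the junction in 160, within the J part in 47 and within the V part in 30.

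Reads per clonotype were lower in nonproductive joins. Each nonproductive clonotype had a mean of 1.35 ± 0.0410 reads in CD4SP, against 1.98 ± 0.0892 for productive ones, and 1.54 ± 0.0299 in CD8SP, against 2.35 ± 0.0719 (SD, n = 6). Clonotypes seen with a single read made up 72.0% ± 2.79 of nonproductive and 55.2% ± 3.02 of productive joins in CD4SP, and 60.8% ± 1.69 of nonproductive and 40.6% ± 1.29 of productive joins in CD8SP. Neither pair of groups overlapped in either cell type, and both differences pointed the same way in 6 of 6 mice (exact sign-flip permutation test, adjusted p = 0.0424). Of the 19 measures compared between the classes, 14 passed in CD4SP and 14 in CD8SP (73.7% in each), so a measure that passed is not unusual among them.

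Nonproductive CDR3s were more spread in length. The standard deviation of their length was 4.71, 4.52 and 4.76 nt in KO CD4SP and 4.63, 4.94 and 4.54 nt in WT CD4SP libraries, against 3.91 to 3.95 nt for productive joins of the same libraries. In CD8SP it was 4.67, 4.60 and 4.65 nt in KO and 4.57, 4.86 and 4.79 nt in WT mice, against 4.20 to 4.30 nt for productive joins. No nonproductive value reached down to a productive one in either cell type, and 6 of 6 mice had the wider nonproductive distribution in each (adjusted p = 0.0424). Mean length was 40.4 ± 0.156 nt in nonproductive and 39.9 ± 0.0435 nt in productive joins of CD4SP (adjusted p = 0.0424). In CD8SP it was 40.4 ± 0.103 nt and 40.4 ± 0.0541 nt, a difference of 0.0604 ± 0.108 nt that did not pass (adjusted p = 0.210). The rule leaves nearly all lengths divisible by 3 to the productive class, so the lengths of the classes interleave rather than share values.

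**Figure D1:**
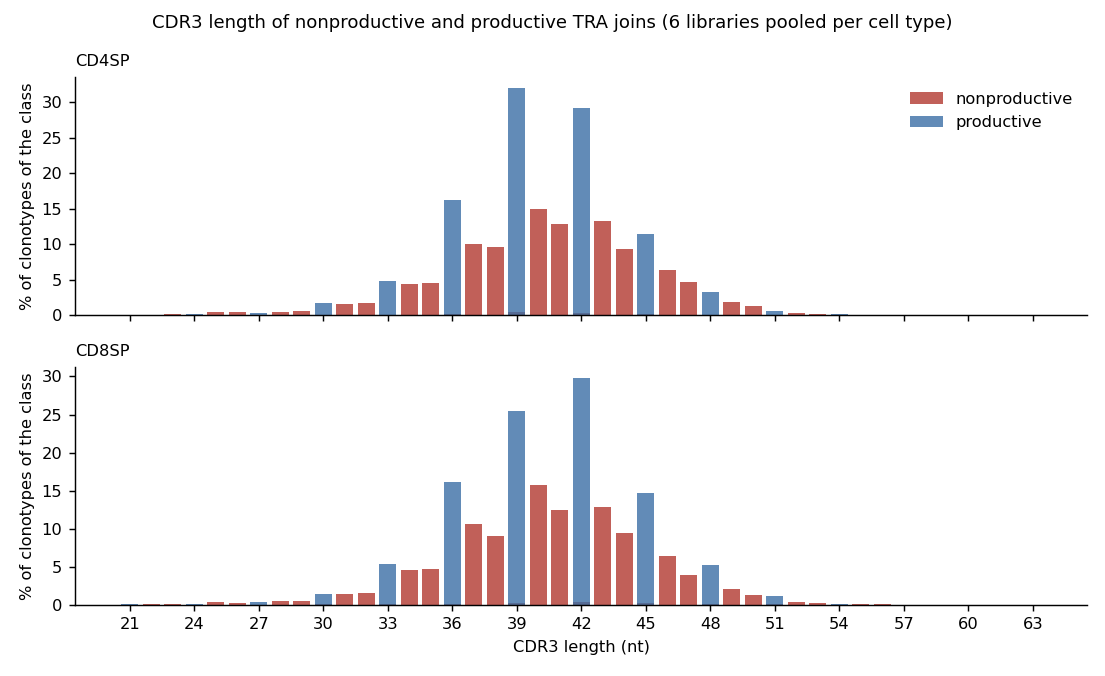
CDR3 length in nucleotides (x) against the share of the clonotypes of each class in percent (y), nonproductive in red and productive in blue, for CD4SP (top) and CD8SP (bottom), 6 libraries pooled in each. Productive joins of CD4SP pile up at 39 nt (32.0%) and 42 nt (29.3%), while the highest nonproductive bar is at 40 nt in both cell types (15.01% in CD4SP and 15.8% in CD8SP).

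Trimming and base addition also differed. Nonproductive joins had a mean of 2.32 ± 0.0487 added nt in CD4SP, against 2.11 ± 0.0187 in productive joins, and 2.32 ± 0.0652 in CD8SP, against 2.13 ± 0.0192 (SD, n = 6, higher in 6 of 6 mice in each, adjusted p = 0.0424). V ends had lost 2.30 ± 0.0802 nt in nonproductive and 2.09 ± 0.0144 nt in productive joins of CD4SP, and 2.27 ± 0.0335 nt and 2.04 ± 0.0184 nt in those of CD8SP. J ends had lost 2.84 ± 0.0858 nt in nonproductive and 2.66 ± 0.0238 nt in productive joins of CD8SP (adjusted p = 0.0424). In CD4SP they had lost 2.85 ± 0.105 nt and 2.81 ± 0.0257 nt, which did not pass (adjusted p = 0.489). Joins with no added base were 27.4% ± 1.17 of nonproductive and 28.2% ± 0.413 of productive clonotypes in CD4SP (adjusted p = 0.223), and 27.5% ± 1.02 and 28.9% ± 0.227 in CD8SP (adjusted p = 0.0424).

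**Figure D2:**
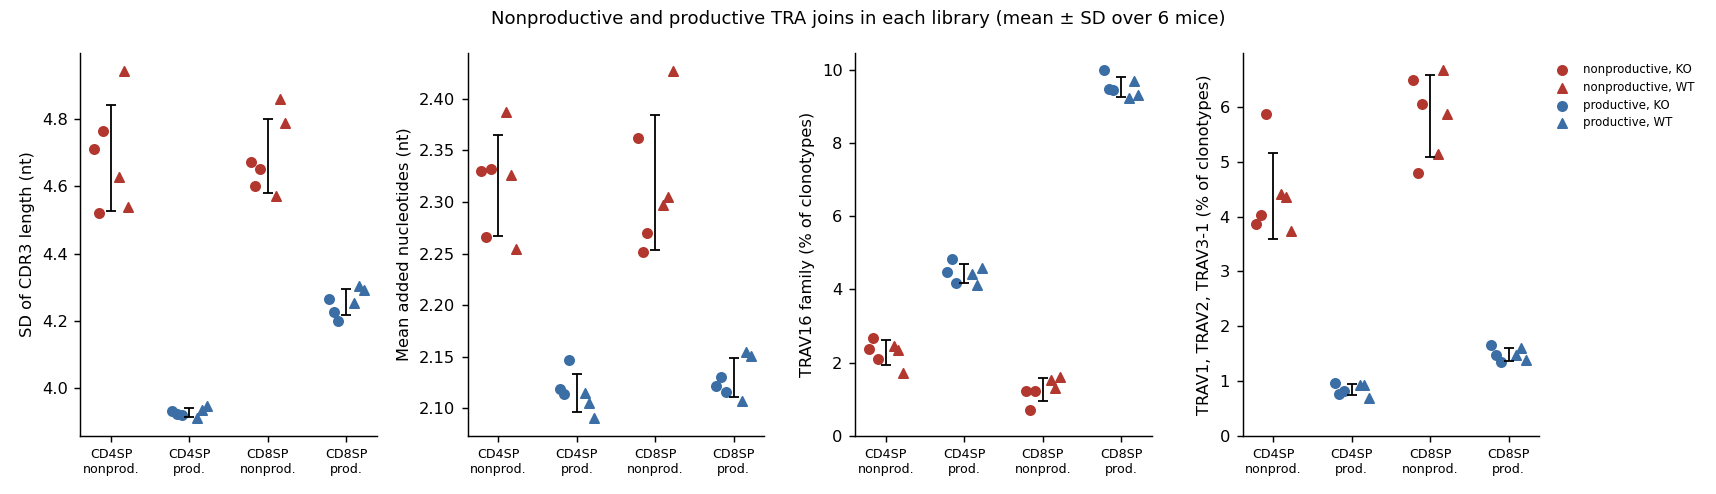
Each point is 1 library, circles KO and triangles WT, red nonproductive and blue productive, and bars give the mean and SD over 6 mice. The panels show the SD of CDR3 length in nt, mean added nt, and the share of clonotypes in percent on the TRAV16 family and on the farthest V segments (TRAV1, TRAV2, TRAV3-1). Nonproductive values stand above productive ones in 3 of the 4 panels in both cell types and below them for the TRAV16 family, where productive shares average 4.43% in CD4SP and 9.52% in CD8SP.

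Which V and J segments the nonproductive joins used was compared with the productive joins of the same libraries by edgeR's quasi-likelihood test on counts of clonotypes. In CD4SP, 90 of 116 segments tested (77.6%) passed an adjusted p of 0.05, 46 higher (39.7%) and 44 lower (37.9%) in nonproductive joins. In CD8SP, 88 of 116 (75.9%) passed, 48 higher (41.4%) and 40 lower (34.5%). A call alone is therefore the rule among segments here, and the sizes below carry the description.

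TRAV7-2, a member of a family with many near-identical copies, stood at 2.36%, 3.30% and 3.44% of nonproductive clonotypes in KO CD4SP and at 2.51%, 3.05% and 2.65% in WT CD4SP libraries. Of productive clonotypes it took 13.4%, 12.8% and 13.9% in KO CD4SP and 13.4%, 13.7% and 14% in WT CD4SP libraries. The classes were far apart in every library, a log2 fold change of -2.23 ± 0.07 (SE, adjusted p = 2.7e-169). In CD8SP, TRAV7-2 averaged 3.06% ± 0.392 of nonproductive and 8.17% ± 0.164 of productive clonotypes, a log2 fold change of -1.42 ± 0.07. Every TRAV7-2 clonotype had an equally scored second V segment, so the value holds for the tied copies together. Of the 9 TRAV7 members tested, 8 were lower in CD4SP and 7 in CD8SP, and none was higher, with a median log2 fold change of -0.90 in CD4SP and -0.91 in CD8SP against -0.02 and 0.10 over all segments. The family was described because its members led the lower calls in CD4SP. TRAV7D-3 fell by 1.96 in CD4SP and by 2.90 in CD8SP on the log2 scale, and TRAV7-3 fell by 1.82 and by 2.29.

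TRAV16 segments, which in productive chains lean to CD8SP, were the other low group. TRAV16N, 1 of 2 members, took 0.971%, 0.355% and 1.04% of nonproductive clonotypes in KO CD8SP and 1.23%, 1.10% and 1.31% in WT CD8SP libraries, against 6.96% to 7.72% of productive ones. Its log2 fold change was -2.89 ± 0.10 in CD8SP and -0.99 ± 0.10 in CD4SP. TRAV16D-DV11, the other member, fell by 3.03 in CD8SP and by 0.77 in CD4SP on the log2 scale. The family as a whole was 2.27% ± 0.334 of nonproductive and 4.43% ± 0.263 of productive clonotypes in CD4SP, and 1.26% ± 0.314 and 9.52% ± 0.271 in CD8SP (6 of 6 mice lower in each, exact sign-flip permutation test, adjusted p = 0.0424).

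TRAV14 members were lower as well. All 7 tested passed as lower in CD4SP, with TRAV14-3 at -1.44 ± 0.26 the lowest, while in CD8SP 4 were lower, 1 (TRAV14N-3, 0.23 ± 0.11) was higher and 2 did not pass, the higher call being lost with TMM factors (0.10) and in DESeq2 (0.17). The family took 8.37% ± 1.10 of nonproductive and 14.3% ± 0.340 of productive clonotypes in CD4SP, and 6.20% ± 0.598 and 8.80% ± 0.437 in CD8SP. TRAV12 members went the other way in CD4SP, where 6 of 7 were higher and none was lower, with TRAV12-1 at 3.05 ± 0.18. In CD8SP 4 of 7 were higher and 2 were lower, TRAV12D-1 at 2.58 ± 0.24 and TRAV12D-3 at -0.72 ± 0.12 being the extremes. Of the 5 TRAV4 members tested, 3 were higher and 1 (TRAV4D-4, -0.39 ± 0.18) was lower in CD4SP, and 4 were higher and none was lower in CD8SP. The largest among them, TRAV4D-2, is annotated by RefSeq as a pseudogene and is described with the other pseudogenes below.

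TRAV1, at the far end of the array, was more frequent in nonproductive joins. It took 3.0%, 3.63% and 5.33% of nonproductive clonotypes in KO CD4SP and 3.96%, 4.02% and 2.96% in WT CD4SP libraries, against 0.564% to 0.749% of productive ones. In CD8SP it took 6.08%, 4.21% and 5.65% in KO and 4.63%, 6.08% and 5.46% in WT libraries, against 0.941% to 1.28%. The lowest nonproductive value was above the highest productive value in both cell types, and the log2 fold change was 2.50 ± 0.11 in CD4SP and 2.30 ± 0.08 in CD8SP. TRAV2, another segment of that end named for its position, was higher in CD4SP (1.51 ± 0.29, adjusted p = 3.5e-07) but did not pass in CD8SP (0.21 ± 0.25, adjusted p = 0.445, and 0.0140 when reads were counted, at 0.70). Elsewhere in the array, TRAV3D-3 (4.44% ± 0.519 against 1.03% ± 0.108 in CD4SP, every clonotype tied) and TRAV13N-4 were higher too, by 2.10 and 2.82 on the log2 scale in CD4SP. Many TRAV13N-4 clonotypes had an insertion or deletion in the V or J alignment, with the share given below. TRAV6-5, a frequent segment, took 6.98% ± 0.590 of nonproductive and 3.07% ± 0.0528 of productive clonotypes in CD4SP, and 7.81% ± 0.875 and 2.08% ± 0.120 in CD8SP.

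TRAV11, the V segment of NKT cells, took 2.50% ± 0.319 of nonproductive and 0.776% ± 0.0562 of productive clonotypes in CD4SP, and 2.48% ± 0.439 and 0.808% ± 0.0841 in CD8SP. That is a log2 fold change of 1.70 ± 0.12 in CD4SP and 1.62 ± 0.11 in CD8SP. Counted by reads, where the invariant chain weighs most, the sign in CD4SP was reversed, at -1.28. Every TRAV11 clonotype was tied with an equally scored segment. TRAJ18, the J segment of the same chain, was at 0.04 ± 0.10 in CD4SP (adjusted p = 0.716) and at 0.23 ± 0.10 in CD8SP (adjusted p = 0.0400). TRAJ33, the J segment of mucosal-associated invariant T cells, was at -0.25 ± 0.10 in CD4SP and at -0.68 ± 0.09 in CD8SP.

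Among J segments, TRAJ32 stood out in the nonproductive class. It did so most in 1 frame, with 8.83% ± 1.12 of joins out of frame by 2 and 2.43% ± 0.380 of those out by 1 (12 libraries). It took 4.67%, 5.36% and 6.34% of nonproductive clonotypes in KO CD4SP and 5.08%, 4.36% and 5.53% in WT CD4SP libraries, against 1.29% to 1.47% of productive ones. In CD8SP it took 5.28% ± 0.322 of nonproductive and 1.70% ± 0.151 of productive clonotypes. No library's values met. TRAJ57 was the lowest J segment in CD4SP at -1.22 ± 0.18, and TRAJ47 in CD8SP at -1.06 ± 0.15. TRAJ45 took 1.73% ± 0.263 of nonproductive and 0.850% ± 0.0595 of productive clonotypes in CD4SP (log2 fold change 1.02 ± 0.13, adjusted p = 4.4e-13). In CD8SP it took 1.82% ± 0.264 and 2.01% ± 0.121 (log2 fold change -0.15 ± 0.11, adjusted p = 0.190, and 0.0119 with TMM factors).

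The share of a segment's own clonotypes that were nonproductive ranged from 2.26% (TRAV7D-3) to 83.5% (TRAV4D-2) over the 79 TRAV segments with at least 100 clonotypes, with a median of 12.3%. Over 43 TRAJ segments it ranged from 6.22% (TRAJ57) to 29.9% (TRAJ32), with a median of 10.96%. 4 TRAV segments had more nonproductive than productive clonotypes. TRAV4D-2, with 101 of 121 clonotypes, and TRAV20, with 121 of 188 (64.4%), are annotated by RefSeq as pseudogenes. TRAV23, the remaining pseudogene among the V segments seen, had 10 of only 12 clonotypes. TRAV11N had 175 of 239 (73.2%) and TRAV15-2-DV6-2 had 58 of 100 (58.0%), and both are annotated as V segments. An insertion or deletion in the V or J alignment was present in 68% of the clonotypes of TRAV15-2-DV6-2 and in 41.4% of those of TRAV13N-4, against 2.93% for TRAV11N and none for TRAV4D-2. For comparison, joins whose length falls at random would be out of frame in 66.7%. The lowest shares after TRAV7D-3 were those of TRAV7-3 (2.87%), TRAV16N (3.0%), TRAV16D-DV11 (3.04%), TRAV4N-3 (3.28%) and TRAV7-2 (3.31%). A nonproductive clonotype 1 edit from a productive one of its own library was more frequent in some of the low segments, 33.4% of those of TRAV7-2 and 29.7% of those of TRAV16N, and TRAV4D-2 had none of 101 and TRAV11N 0.571%. These shares also depend on how many productive clonotypes a segment has to be near, 16965 for TRAV7-2 and 8593 for TRAV16N, but 20 for TRAV4D-2 and 64 for TRAV11N. The part of such copies in the segment shares was not tested beyond leaving them out, which left 85 calls in CD4SP and 86 in CD8SP.

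**Figure D3:**
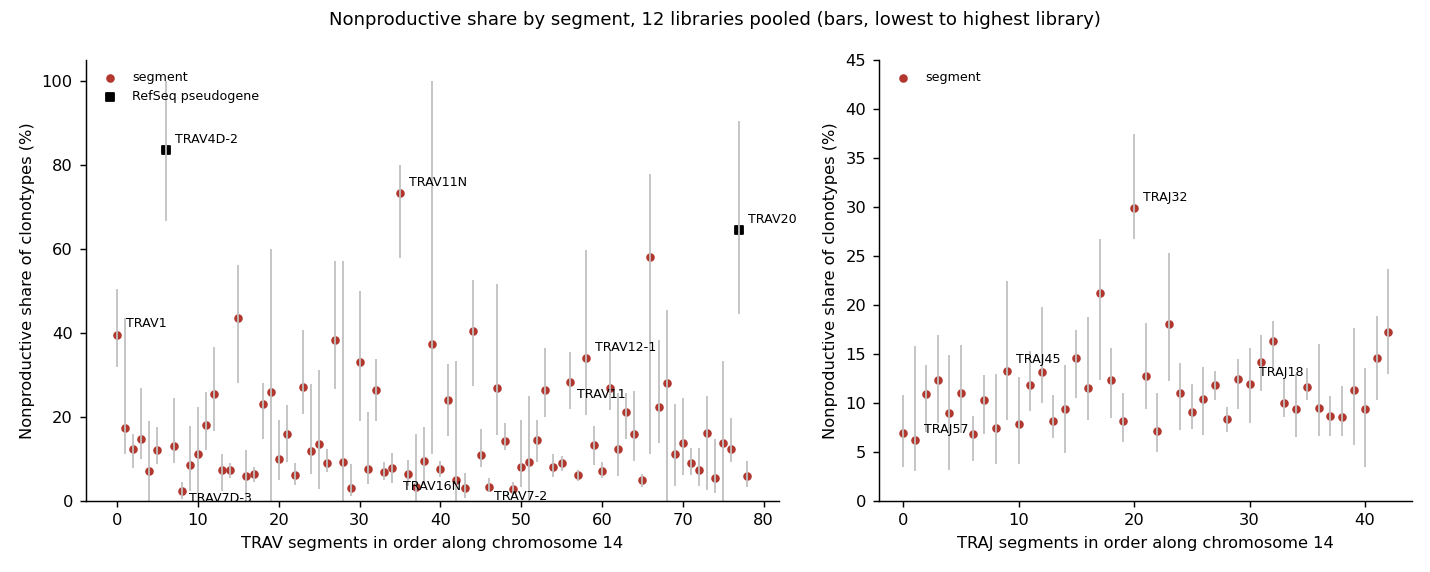
Nonproductive share of each segment's clonotypes in percent (y) for TRAV (left) and TRAJ segments (right) with at least 100 clonotypes, in order along chromosome 14 (x). Points pool 12 libraries, grey bars run over the libraries' lowest to highest value, and black squares mark RefSeq pseudogenes, with TRAV4D-2 at 83.5% and TRAV20 at 64.4%.

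Positions along the locus differed between the classes, but the windows held single V segments with large gaps of their own. Of nonproductive clonotypes in CD4SP, 13.3% ± 1.06 used V segments in the first of 4 windows of the V array (52.4 to 52.8 Mb), against 8.82% ± 0.388 of productive ones, and 14.9% ± 0.866 against 9.76% ± 0.264 did so in CD8SP. TRAV1, in that window, took 3.82% ± 0.871 of nonproductive and 0.668% ± 0.0774 of productive clonotypes in CD4SP. In CD8SP it took 5.35% ± 0.775 and 1.08% ± 0.133. A clonotype with tied V segments was placed by the first one listed, so its window is uncertain. The third window (53.2 to 53.6 Mb) held 45.1% ± 1.39 of nonproductive and 53.2% ± 0.627 of productive clonotypes in CD4SP. TRAV7-2, which lies there, took 2.88% ± 0.442 of nonproductive and 13.5% ± 0.451 of productive clonotypes in CD4SP. That gap is wider than the gap of the whole window, but the clonotypes of TRAV7-2 were all tied. Other segments there differed too in CD4SP, TRAV7-5 being lower (4.96% against 9.32%) and TRAV6-5 higher (6.98% against 3.07%). In CD8SP the third window held 45.3% ± 1.38 and 51.2% ± 0.509, a wider gap than that of TRAV7-2 (3.06% against 8.17%). The lower nonproductive share of the window was therefore not traced to a single segment. V segments in the last window (53.6 to 54 Mb), next to the J cluster, were joined to a 5′ J segment (TRAJ42 to TRAJ61) in 47.6% ± 2.30 of nonproductive and 52.8% ± 1.03 of productive clonotypes in CD4SP. In the first window this was 7.50% ± 0.725 of nonproductive and 8.49% ± 0.933 of productive clonotypes. Over all V segments, 5′ J segments took 15.01% ± 0.738 of nonproductive and 16.9% ± 0.562 of productive clonotypes in CD4SP, and 15.8% ± 1.02 and 17.9% ± 0.700 in CD8SP. The classes overlapped, but 6 of 6 mice were lower in the nonproductive class in each cell type (exact sign-flip permutation test, adjusted p = 0.0424), a direction that counting reads in CD4SP turned round, to a difference of 0.473 percentage points.

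Between cell types, the nonproductive joins differed less than the productive ones. Of 94 segments tested in nonproductive joins, 9 (9.57%) passed between CD4SP and CD8SP, 4 higher (4.26%) and 5 lower (5.32%) in CD4SP, while 89 of 114 (78.1%) passed in the productive joins of the same libraries. The nonproductive class has fewer clonotypes, with a median standard error of 0.17 on the log2 scale against 0.06, so the counts of calls are not comparable by themselves. The sizes differed as well. Over the 92 segments tested in both, the median absolute log2 fold change was 0.14 in nonproductive and 0.40 in productive joins.

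The difference between the classes was tested itself, as an interaction in 1 fit, and 45 of 116 segments (38.8%) passed, 26 (22.4%) of them shifted toward CD4SP in nonproductive joins and 19 (16.4%) toward CD8SP. Of the 39 of these that were tested in both classes, 36 had the larger absolute cell type difference in productive joins. The same held for 64 of the 71 segments called between cell types in productive joins, so it is not particular to the 39. TRAV4-2 took 2.25%, 2.96% and 1.89% of nonproductive clonotypes in KO CD4SP and 2.04%, 2.22% and 2.80% in WT CD4SP libraries. In CD8SP it took 2.51%, 2.61% and 2.31% in KO and 2.39%, 1.92% and 2.61% in WT libraries, and the cell types overlapped (log2 fold change -0.02 ± 0.14). In productive joins it took 1.13% to 1.35% in CD4SP and 0.291% to 0.478% in CD8SP, with no overlap and a log2 fold change of 1.75 ± 0.08. The difference of these values was -1.76 ± 0.16 (adjusted p = 7.1e-25).

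TRAV12-1 and TRAJ45 gave the mirror image. TRAV12-1 took 1.64% ± 0.236 of nonproductive clonotypes in CD4SP and 1.43% ± 0.259 in CD8SP, while of productive clonotypes it took 0.199% ± 0.0417 in CD4SP and 0.542% ± 0.0588 in CD8SP, a difference of 1.65 ± 0.21 on the log2 scale (adjusted p = 4.3e-13). TRAJ45 took 1.73% and 1.82% of nonproductive clonotypes in CD4SP and CD8SP, and 0.850% and 2.01% of productive ones, a difference of 1.17 ± 0.17 (adjusted p = 1.4e-10). TRAV7-2, which leans to CD4SP in productive joins by 0.73 on the log2 scale, differed by -0.81 ± 0.12. TRAV6-5 differed by -0.72 ± 0.09 and TRAV3D-3 by 0.90 ± 0.11. TRAJ33 differed by 0.43 ± 0.14, whereas TRAV11 (0.08 ± 0.15) and TRAJ18 (-0.19 ± 0.14) did not pass.

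**Figure D4:**
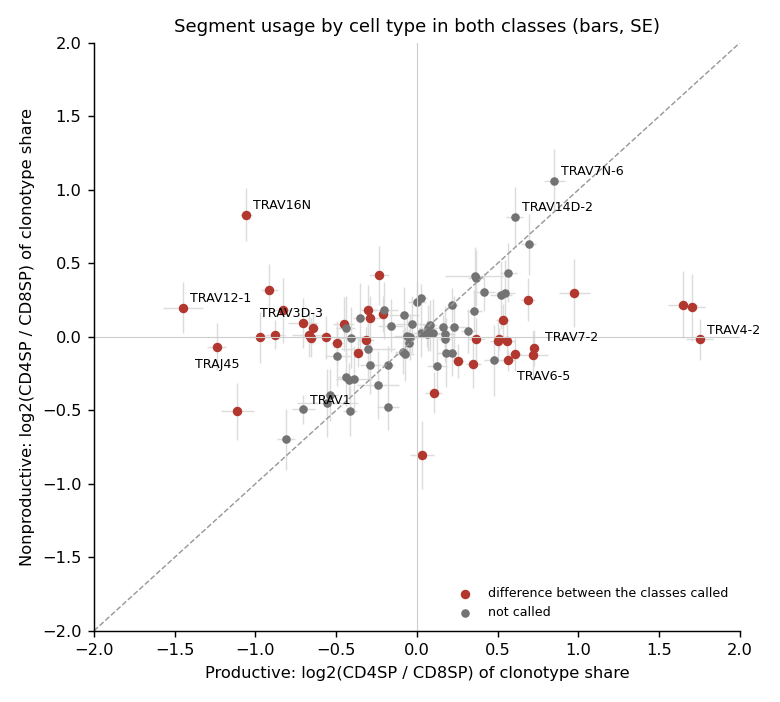
Each point is a segment, with the log2 ratio of its clonotype share in CD4SP over CD8SP in productive joins (x) and in nonproductive joins (y), bars the SE, and red where the difference between the classes passed. Points spread from -1.45 to 1.75 along x and from -0.81 to 1.06 along y, and the dashed line marks equal values.

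TRAV16N was called between cell types in both classes, with opposite signs. In nonproductive joins it took 1.85%, 2.29% and 1.48% in KO CD4SP and 1.72%, 1.87% and 1.25% in WT CD4SP libraries, against 0.355% to 1.31% in CD8SP, with 1 WT CD4SP library inside the CD8SP range. The log2 fold change was 0.83 ± 0.18 (adjusted p = 1.8e-04, higher in CD4SP in 5 of 6 mice), and it was -1.06 ± 0.04 in productive joins. The difference between the classes was 1.90 ± 0.18 (adjusted p = 1.1e-23). The nonproductive call did not hold without KO replicate 2 (0.55, adjusted p = 0.0608) or in DESeq2 (0.82, adjusted p = 0.331).

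Of the other 8 segments called between cell types in nonproductive joins, TRAV1 was the most frequent. It was lower in CD4SP, at 3.82% ± 0.871 against 5.35% ± 0.775 in CD8SP (log2 fold change -0.49 ± 0.10, adjusted p = 5.4e-05, lower in 6 of 6 mice). TRAV7N-6 took 1.18% ± 0.146 in CD4SP and 0.569% ± 0.0923 in CD8SP with no overlap (1.06 ± 0.22, adjusted p = 1.3e-04). TRAV14D-2 (0.82 ± 0.20) and TRAV14-2 (0.63 ± 0.21) were also higher in CD4SP, and TRAJ52 (-0.81 ± 0.23), TRAV6N-6 (-0.70 ± 0.21), TRAJ49 (-0.50 ± 0.17) and TRAV8-1 (-0.48 ± 0.16) were lower. Of the 9, 8 were also called in productive joins, 7 of them in the same direction. Of all 92 segments tested in both classes, 71 were called in productive joins, so being called there is common. Of those 71, 40 had the same sign in nonproductive joins. These calls rest on few clonotypes, from 47 to 555 per segment and cell type, and their number was 3 without WT replicate 2, 4 without KO replicate 2 and 5 without KO replicate 1. It was 2 in DESeq2 and 0 among clonotypes of at least 2 reads, in edgeR, where 7 of 38 segments passed an unadjusted p of 0.05.

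The families are given by cell type in each class. The TRAV16 family was 2.27% of nonproductive clonotypes in CD4SP and 1.26% in CD8SP, and 4.43% and 9.52% of productive ones, so the cell type with the higher share differed between the classes. The TRAV14 family was 8.37% of nonproductive clonotypes in CD4SP and 6.20% in CD8SP, and 14.3% and 8.80% of productive ones. The TRAV4 family was 6.25% and 6.08% of nonproductive clonotypes, and 3.79% and 1.89% of productive ones. The TRAV12 family was 7.36% and 6.39% of nonproductive clonotypes, and 2.92% and 4.71% of productive ones, and here too the higher cell type differed. Of 19 measures, 10 (52.6%) shifted the same way between the classes in 6 of 6 mice. For each of TRAV4, TRAV12, TRAV14 and TRAV16, the 6 mice agreed in the direction of this shift, but the families differed. In nonproductive joins the shift was toward CD8SP for TRAV4 and TRAV14 and toward CD4SP for TRAV12 and TRAV16. The exact sign-flip permutation test gave an adjusted p of 0.0594 for each, the lowest that 19 measures reached here. Mean CDR3 length differed by -0.0292 ± 0.161 nt between CD4SP and CD8SP in nonproductive and by -0.443 ± 0.0464 nt in productive joins, with the same adjusted p for the difference. Among 24 measures of nonproductive joins alone, 6 (25.0%) pointed the same way in 6 of 6 mice between the cell types, and none passed after adjustment (lowest adjusted p = 0.125, exact test).

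Out-of-frame joins were not split evenly by frame on every segment, which was looked at after the first values had been seen. Each segment's share of the joins out of frame by 1 was compared with its share of the joins out of frame by 2, with the library as a block in edgeR. A fold change is thus relative to the overall split between the frames, and its sign can differ from that of the raw numbers, as for TRAV6-5 with 727 joins out by 1, 692 out by 2 and a log2 fold change of -0.23. Of 57 segments, 21 (36.8%) passed, 13 toward 1 (22.8%) and 8 toward 2 (14.04%). With TMM factors, the split was 11 toward 1 and 12 toward 2. Examples of both frames follow. Capitals mark bases that either end could have supplied, except in TRAV8-1 to TRAJ9, where they mark bases assigned to neither end, and the last join has none of either kind.
TRAV8-1 to TRAJ21, out by 1: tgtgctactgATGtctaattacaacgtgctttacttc
TRAV8-1 to TRAJ9, out by 2: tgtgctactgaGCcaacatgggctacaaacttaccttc
TRAV11 to TRAJ32, out by 1: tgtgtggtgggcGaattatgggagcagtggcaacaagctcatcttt
TRAV11 to TRAJ32, out by 2: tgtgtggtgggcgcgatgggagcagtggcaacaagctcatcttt
TRAV8-1 had 325 joins out by 1 and 24 out by 2 (log2 fold change 3.39 ± 0.20, adjusted p = 3.9e-19, the same way in 12 of 12 libraries). TRAV8D-1, its near copy, which was below the filter, had 109 and 13. TRAV11 had 381 out by 1 and 107 out by 2 (1.53 ± 0.14, 12 of 12 libraries). TRAJ32 went the other way, with 260 out by 1 and 762 out by 2 (-1.84 ± 0.10, adjusted p = 7.1e-21, 12 of 12 libraries). Beyond these, the called segments lay between -0.60 (TRAV7-5) and 0.84 (TRAV6D-5). Leaving out clonotypes with an insertion or deletion in the V or J alignment gave 21 calls of 52 tested.

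**Figure D5:**
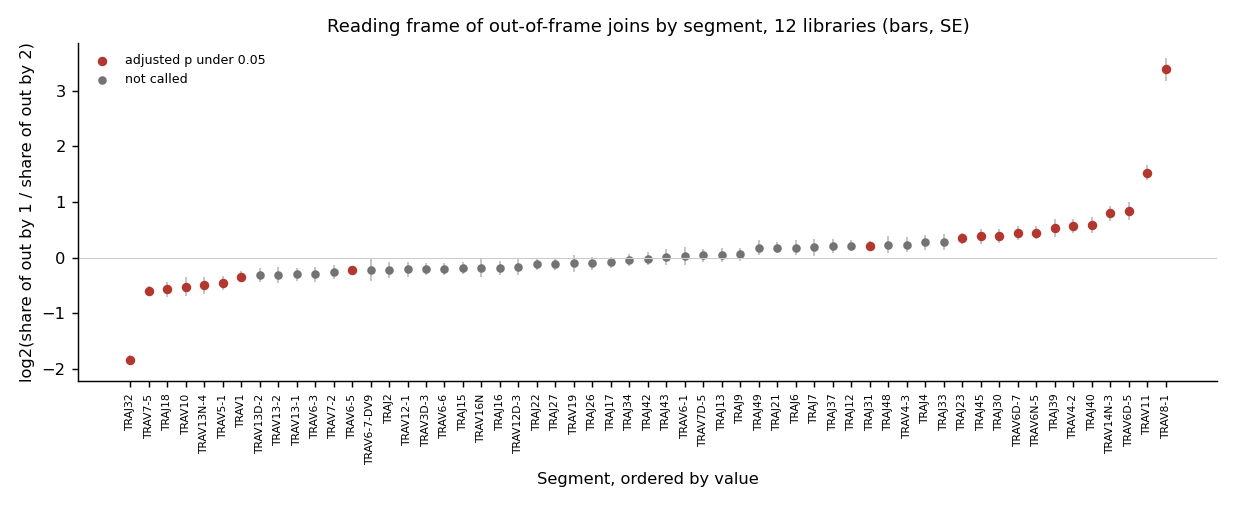
log2 ratio of a segment's share of the joins out of frame by 1 over its share of those out by 2 (y) for 57 segments (x) in 12 libraries, with SE bars and red for an adjusted p under 0.05. TRAJ32 at -1.84 and TRAV11 and TRAV8-1 at 1.53 and 3.39 stand apart from the other segments.

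Few nonproductive clonotypes were seen in more than 1 library. Of the 19044, 18642 (97.9%) were found in 1 library, 351 in 2 and 51 in 3 or more, whereas 86.0% of productive clonotypes were found in 1 library. These shares depend on list length, 1285 to 1956 nonproductive and 10456 to 14981 productive clonotypes per library. They are therefore not comparable between the classes, whereas a rate per pair of clonotypes does not grow with list length. Per 1000000 pairs of clonotypes, libraries of the same mouse shared 3.63 ± 1.21 nonproductive clonotypes between CD4SP and CD8SP, and libraries of different mice 3.39 ± 0.157 (SD, n = 6 mice). The same-mouse value was the higher in 4 of 6 mice (exact sign-flip permutation test, p = 0.625). Productive clonotypes were shared at 5.43 ± 0.173 within a mouse and 5.39 ± 0.0247 between mice, both between CD4SP and CD8SP libraries. Between libraries of the same cell type from different mice, the median was 3.33 for nonproductive clonotypes (0.761 to 7.57) and 7.25 for productive ones (6.64 to 8.15). Joins without an added base were 74.5% of the 51 nonproductive clonotypes found in 3 or more libraries, 64.1% of those found in 2 and 25.6% of those found in 1. In productive clonotypes the corresponding shares were 52.9%, 36.7% and 18.9%. Clonotypes grouped by the number of libraries share their sequences across libraries, so these shares are a description without a test.

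Between genotypes, no segment passed in nonproductive joins. In CD4SP, 0 of 99 segments had an adjusted p under 0.05 in edgeR (0%) and 2 (2.02%) had an unadjusted p under 0.05. In CD8SP 0 of 99 had an adjusted (0%) and 6 (6.06%) an unadjusted p under 0.05, and DESeq2 called 0 in either. The smallest p values were those of TRAJ6 in CD4SP (0.69 ± 0.23 on the log2 scale, adjusted p = 0.249) and TRAV6-5 in CD8SP (-0.26 ± 0.10, adjusted p = 0.780). They were followed by TRAV7-6 (0.84 ± 0.38) in CD4SP and by TRAV11N (0.65 ± 0.29), TRAV11 (0.41 ± 0.19), TRAV16N (-0.60 ± 0.29) and TRAV3D-3 (0.28 ± 0.14) in CD8SP. These segments were picked by their p values, and with such standard errors changes of this size in single segments did not pass.

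Of 24 measures of nonproductive joins, 1 (4.17%) pointed the same way in all 3 KO and WT pairs in CD4SP and 7 (29.2%) did so in CD8SP. With 3 pairs the exact sign-flip test cannot go below p = 0.25, and permuting labels without pairs cannot go below 0.1, so none could pass. In CD8SP, 5 of 24 measures (20.8%) had groups that did not overlap. TRAV11 took 3.02%, 2.61% and 2.88% of nonproductive clonotypes in KO CD8SP, against 2.098%, 2.36% and 1.90% in WT CD8SP libraries. In CD4SP it took 2.94%, 2.57% and 2.36% in KO, against 2.70%, 2.01% and 2.41% in WT libraries, and these overlapped. The others were the share without added bases, at 28.2%, 27.9% and 28.9% in KO CD8SP, against 26.6%, 27.4% and 26.2% in WT CD8SP, and the shares of TRAJ45, the TRAV16 family and 5′ J segments, each lower in KO. Of productive clonotypes, TRAV11 took 0.753%, 0.789% and 0.865% in KO CD8SP, against 0.679%, 0.909% and 0.853% in WT CD8SP, with overlap.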

How the data were processed

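Thymocytes were sorted by CD4 and CD8, and their RNA was turned into TCR libraries (SMARTer mouse kit) read on a MiSeq, per the labels' protocols. MiXCR assembled the clonotypes, per the series' design text, and the build is mm10, per the submitters' processing notes. The MiXCR version and its quality filters are not given in the sources used here. Deposited values are raw counts of reads per clonotype, per the file headers, and the deposited lowest base quality of the CDR3 is a score. There are no molecule counts, so reads cannot be traced to single RNA molecules. Beta tables were not used.

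Rows with the same best V, best J and CDR3 were merged, alleles were dropped, and all 143 segments seen were matched to RefSeq (GRCm38.p6). Added and trimmed bases came from the reference points in the files. Counts of distinct clonotypes per segment, V and J in 1 table, were tested by quasi-likelihood in edgeR 4.0.16 (R 4.3.3). Offsets came from the number of TRA clonotypes of the class, low counts were removed by filterByExpr, and the Benjamini-Hochberg threshold was 0.05. Blocks were the library between classes and frames, the mouse between cell types, and the replicate number between genotypes, since the design text names pairs of mice. KO and WT libraries of the same number correlated at -0.107 to 0.172 in their deviations from the group means. CD4SP and CD8SP libraries of the same mouse correlated at -0.218 to 0.111, so neither pairing showed as a clear likeness in nonproductive segment shares. The class fits and the genotype fits treat both cell types' libraries from the same animal as independent. Measures per library were compared by exact two-sided sign-flip permutation tests over 6 mice or 3 pairs, adjusted within each comparison. Errors are SD for means and SE for log2 fold changes. Tests were checked on simulated data. Python 3.11.15, numpy 2.4.6 and pandas 2.3.3 did the rest. Alternatives were DESeq2 1.42.0, TMM factors, no filter, reads in place of clonotypes, a minimum of 2 reads, and leaving out tied segments, stop joins, near copies, TRAV11 to TRAJ18 joins, joins with an insertion or deletion (added after seeing the data) and each mouse or library.

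The members and lists were chosen with earlier results of these data known. Segments are named by a rule: those past the threshold with a mean share of at least 0.5%, at most the 10 largest per direction and comparison, the 5 of smallest p where fewer than 5 passed, TRAV11, TRAJ18, TRAJ33 and TRAJ45, and the extremes of the families TRAV4, TRAV12, TRAV14 and TRAV16. Pseudogenes, TRAJ32 and TRAV6-5 between classes, the TRAV7 family, TRAV8D-1, TRAV2, TRAV4-2 and TRAV12-1 in nonproductive joins between cell types, and the extremes of the nonproductive share were named after their values were seen. Joins are those found in most libraries, at most 8.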

Additional observations from a re-analysis of the deposited data

Results flagged for a closer look

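Of the 48 sets of 6 libraries examined for a value far from the others, 1 was set apart, which is no more than the 1 in 20 that chance gives. KO CD4SP replicate 3 had 5.87% of its nonproductive clonotypes on TRAV1, TRAV2 and TRAV3-1, and the next highest CD4SP library had 4.42%. The higher nonproductive share of these segments did not depend on it, since all 6 CD4SP libraries lay above the productive values.

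The difference between nonproductive and productive joins was itself different in CD4SP and CD8SP for 45 segments by the test of the interaction, with TRAV4-2 and TRAV16N at the smallest p.

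Nonproductive joins with a TRDV or TRDJ segment, which entered no comparison, came to 200 reads in 149 rows over the 12 libraries, 7 to 25 reads per library.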

How the results depend on the processing

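Between classes, 63 to 91 segments were called in CD4SP and 68 to 94 in CD8SP under every alternative run, and leaving out a mouse gave 82 to 87 and 80 to 85. TMM factors moved the median log2 fold change of all segments in CD8SP to -0.04, against 0.10 without them. Of 2023 recomputed values of named segments, 1893 kept direction and call, 121 lost the call, 4 gained it and 5 were reversed. Counting reads reversed TRAV11 (-1.28) and TRAJ18 (-1.93) between classes in CD4SP, TRAV14N-3 in CD8SP (-0.094) and TRAV11 in the difference between cell types (-3.09), and a minimum of 2 reads reversed TRAV14N-3 in CD8SP (-0.11). The cause was not tested. Counting reads also turned the TRAV11 share (-4.37 percentage points) and the 5′ J share (0.473) in CD4SP. TRAV11 has no value without tied segments.

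For nonproductive joins between cell types, the 9 calls became 0 with at least 2 reads, 2 in DESeq2, 5 without tied segments and 5 without near copies, and 3 to 9 when a mouse was left out. The 45 differences between the classes became 26 with at least 2 reads and 36 to 43 without a mouse. The 21 calls between frames became 5 with at least 2 reads (of 13 tested), and 15 to 22 without a mouse. DESeq2 was not run between frames.

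Between genotypes, 0 segments were called under every alternative, including no replicate block, the libraries of the cell type alone and each library left out. In CD4SP, the 1 measure with the same direction in all pairs became 3 by reads, 7 with at least 2 reads, 2 without ties, 3 without near copies, and 0 without TRAV11 to TRAJ18 joins or without insertions and deletions. With no replicate block, 0 measures had groups apart in CD4SP, and 5 in CD8SP. In CD8SP the 7 became 4 without near copies. Leaving out a pair gave 8 to 10 in CD4SP and 12 to 13 in CD8SP, where only 2 pairs remain. Between classes, 14 of 19 measures in each cell type pointed the same way in all mice, and 14 to 16 did so without a mouse. Leaving out a mouse or a pair cannot lower such a count, so these runs do not test how stable it is. Same-mouse minus other-mouse sharing (0.241 per 1000000 pairs) ran from -0.0377 to 0.612, and the 5′ J share of the V segments next to J (47.6%) from 47.0% to 48.2%. Of nonproductive clonotypes, 72.0% in CD4SP and 60.8% in CD8SP were seen with 1 read, which limits what depth can show.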
